A study of Mus musculus with 9 samples.

Results

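Tau, the enzymes that phosphorylate it and a phosphatase that acts on it were followed in brain myeloid cells of tau-transgenic mice. The set held 10 mouse genes of the 36528 gene numbers counted. They were Mapt, which encodes tau, the serine/threonine kinases Gsk3a, Gsk3b, Cdk5, Mark2, Mark3 and Dyrk1a, the Cdk5 activator Cdk5r1, the tyrosine kinase Fyn, and Ppp2ca, which encodes a catalytic subunit of protein phosphatase 2A (PP2A). They were chosen by symbol for their known action on tau and by no rule on their values, though with earlier results of these data known. All 10 passed the filter on low counts, which left 12250 genes to test.

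RNA was sequenced from cells that carry the integrin chain Cd11b, which marks microglia and other myeloid cells, after sorting from brains of mice aged 11 to 12 months. The Tau-P301L group comprised 5 libraries from transgenic mice, with libraries 1 and 2 from females and libraries 3, 4 and 5 from males. The wild-type group comprised 4 libraries from littermates without the transgene, with libraries 1 and 2 from females and libraries 3 and 4 from males. The P301L change, a proline replaced by leucine, is known from inherited frontotemporal dementia. The sources used here name neither the mouse strain nor the transgenic line, nor the promoter that drives the transgene. No label says that each library came from a different mouse, so p-values measure the spread between these samples, which may be technical.

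Tau binds and stabilises microtubules and is made mainly by neurons. Kinases such as GSK3, CDK5 and the MARK enzymes add phosphates to tau, MARK enzymes within its microtubule-binding repeats, and heavily phosphorylated tau leaves microtubules and forms the tangles of tauopathies. PP2A is the main phosphatase that removes these phosphates in the brain, and FYN, a Src-family kinase, phosphorylates tau on tyrosine. Several of these enzymes have broad roles outside neurons, among them GSK3 in glycogen and beta-catenin signalling and MARK enzymes in cell polarity. The counts report mRNA, not protein, kinase activity or the phosphorylation of tau.

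The site of the transgene's mutation has its counterpart in the mouse gene counted here, and the stretches at the ends of 3 of its 4 microtubule-binding repeats show where it lies. Each repeat ends in a proline-glycine-glycine-glycine (PGGG) motif, whose 12 bases are in capitals below, in 36 bases of the coding sequence of mouse transcript Mapt-203 from GENCODE M21, on the plus strand of chromosome 11 in GRCm38. Each 36-base run crosses an exon junction.
PGGG stretch 1: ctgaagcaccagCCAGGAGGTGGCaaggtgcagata
PGGG stretch 2: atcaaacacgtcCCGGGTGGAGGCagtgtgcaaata
PGGG stretch 4: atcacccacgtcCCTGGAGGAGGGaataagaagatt
The proline codon that the P301L change alters in human tau corresponds to the first codon in capitals of stretch 2, at chr11:104318235-104318237, in exon 10 of that transcript. All 4 repeats were present in 5 of the 5 complete coding transcripts of Mapt in GENCODE M21. Reads were counted on mouse gene models and are given per gene, so these data show neither the transgene nor the tau isoforms. Whether reads of a human transgene were assigned to mouse Mapt was not tested, and Mapt therefore does not check the genotype labels.

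The libraries held 1494727 to 3793606 counted reads, and 3 reads corresponded to 0.791 to 2.01 CPM, a gene's counted reads scaled to a common library size. Mitochondrial genes took 9.30 to 23.1% of the reads. Over all genes, Tau-P301L libraries 3 and 5 were the least like the others, with a mean correlation of 0.844 and 0.835 to them, against 0.864 to 0.896 for the other 7. The 12 microglia markers all passed the filter and summed to 10954 to 18385 CPM in Tau-P301L libraries and 13266 to 17846 CPM in wild-type libraries. The markers Cx3cr1, a chemokine receptor, and Itgam, the gene of Cd11b itself, averaged 3514 ± 1839 and 2663 ± 335 CPM in the 5 Tau-P301L libraries, and 3751 ± 1404 and 2863 ± 237 CPM in the 4 wild-type libraries (mean ± SD, as for all means below).

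The enzymes were transcribed at moderate levels, and tau, Fyn and Cdk5 in the lower part of the tested genes. Levels are compared between genes per length, as the authors' normalised RPKM (nRPKM). Mark3 had the highest mean level over the 9 libraries, at 8.45 ± 0.799 nRPKM (SD, n = 9), which stood at percentile 92.1 of the tested genes. Gsk3b had 4.74 ± 0.79 nRPKM and Cdk5r1 4.67 ± 1.45 nRPKM. Dyrk1a had 3.79 ± 1.15 nRPKM and Gsk3a 3.50 ± 1.18 nRPKM. Mark2 had 3.21 ± 1.35 nRPKM and Ppp2ca 2.64 ± 0.711 nRPKM. These 6 genes lay between percentile 72.2 and percentile 84.7 of the tested genes.

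The last 3 genes in the order were several times lower. Mapt had 0.632 ± 0.5 nRPKM, Fyn 0.618 ± 0.323 nRPKM and Cdk5 0.51 ± 0.263 nRPKM (SD, n = 9 each), at percentiles 27.2, 26.5 and 21.3. The order was taken from the same values that were tested, so pairs and directions were not set in advance. Of the 9 pairs of neighbours in this order, 2 differed beyond their spread. The first was Mark3 over Gsk3b, higher in 9 of 9 libraries (exact sign-flip permutation test, two-sided, p = 0.00391, adjusted over the 9 pairs p = 0.0352), and the other Ppp2ca over Mapt, higher in 8 of 9 libraries (exact permutation p = 0.00781, adjusted p = 0.0352). The other 7 pairs had adjusted p between 0.434 and 0.691 in the same exact permutation test, so their order is not resolved. Cdk5r1, whose product p35 activates CDK5, thus had a higher level per length than the gene of the kinase it activates.

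**Figure D1:**
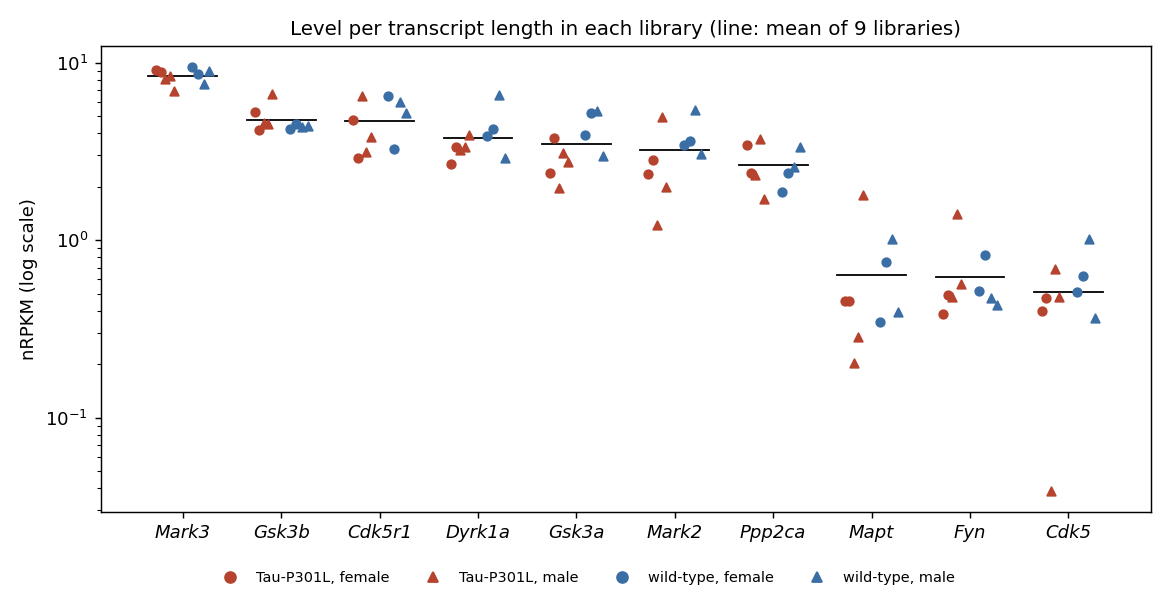
Level per transcript length of each gene in each library, in nRPKM on a log scale, with genes in order of their mean over 9 libraries (line). In each gene the Tau-P301L libraries stand left of the wild-type libraries, circles are females and triangles are males. Mark3 stands highest at a mean of 8.45 nRPKM, and Mapt, Fyn and Cdk5 lie below the other 7 genes, at means of 0.51 to 0.632 nRPKM.

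No gene of the set differed between Tau-P301L and wild-type libraries past the threshold. The test called 0 of the 10 genes (edgeR quasi-likelihood test with sex in the model, Benjamini-Hochberg adjusted p of 0.05 over 12250 genes), against 0.00816% of all tested genes, which is the single gene Rfk. At an unadjusted p under 0.05 the count was 0 of 10, against 6.35% of all tested genes. DESeq2 and limma-voom also called 0 of the 10, against 0.152% and 0.00816% of the genes they tested. The groups did not overlap for 0 of the 10 genes, against 2.48% of all tested genes. With only 10 genes, counts of 0 cannot be told from such shares. Estimates were higher in Tau-P301L libraries for 3 genes and lower for 7, with a median log2 fold change of -0.22 over the 10, against -0.0007 over all tested genes, of which 50.1% had lower estimates.

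The intervals show what size of difference the data leave room for. They were narrowest for Mark3 and Gsk3b and widest for Cdk5, Mapt and Fyn, the genes with the fewest reads. In simulated counts for the 12250 genes with these library sizes, the same edgeR test called 13.4% of genes changed by 1 log2 unit and 59.8% of those changed by 2. In sorted bulk samples, a change in the share of a cell type and a change in RNA per cell cannot be told apart.

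**Figure D2:**
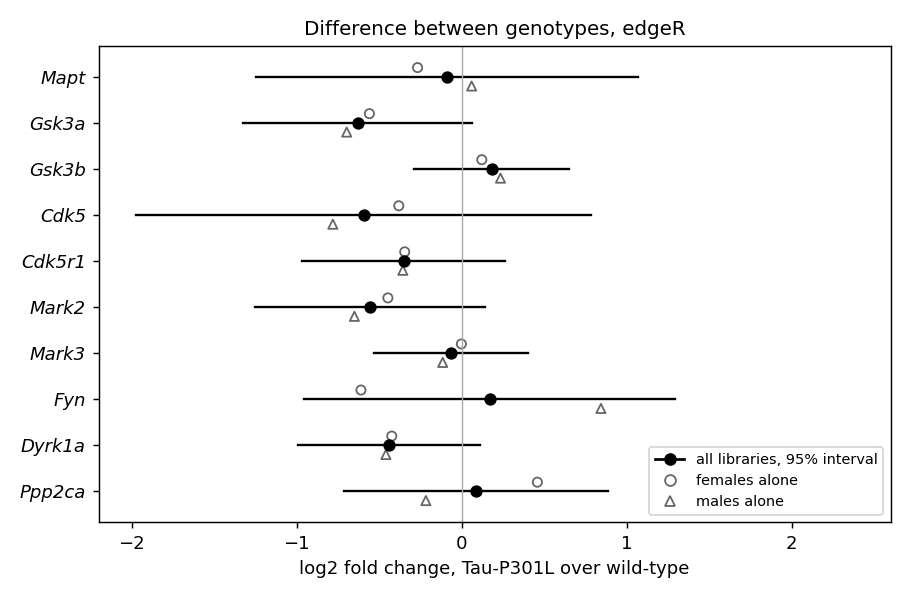
Log2 fold change of each gene, Tau-P301L over wild-type, from edgeR over all 9 libraries (filled points, with 95% intervals) and from fits to females alone (open circles) and males alone (triangles). Every interval of the 10 genes includes 0, and the widest belongs to Cdk5, between -1.97 and 0.79.

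Mapt, the tau gene itself (chr11:104229409-104332090), was detected in every library at low counts. It had 39, 35, 12, 18 and 68 reads in Tau-P301L libraries 1 to 5, and 31, 60, 71 and 39 reads in wild-type libraries 1 to 4. As CPM scaled by trimmed mean of M values (TMM), these were 12.4, 12.5, 5.38, 7.70 and 47.5 CPM in Tau-P301L libraries, and 9.50, 20.5, 27.2 and 10.8 CPM in wild-type libraries. Tau-P301L libraries thus held both the highest value, in library 5, and the 2 lowest, in libraries 3 and 4. The 5 Tau-P301L libraries averaged 17.1 ± 17.3 CPM and the 4 wild-type libraries 17.0 ± 8.37 CPM (mean ± SD). The log2 fold change was -0.09 (SE 0.55, 95% interval -1.24 to 1.07, edgeR adjusted p = 0.985). Without Tau-P301L library 5, the smallest and one of the pair least like the others, it was -0.87 (SE 0.49, edgeR adjusted p = 0.872), and over all alternatives the adjusted p of Mapt lay between 0.872 and 0.9998.

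Mapt varied among libraries by more than counting alone gives, as is usual between separate samples. Its coefficient of variation was 101% among Tau-P301L libraries and 49.3% among wild-type libraries, where counting noise at these depths would give 20.4% and 14.9%. The value for Tau-P301L libraries includes the 47.5 CPM of library 5, and the biological coefficient of variation over all tested genes was 0.464. Neuron markers were present in the sorted cells at levels that also varied. The 20 markers summed to 571, 1816, 1674, 1514 and 3220 CPM in Tau-P301L libraries and to 2109, 1104, 977 and 860.1 CPM in wild-type libraries. The highest sum was in Tau-P301L library 5, where Mapt was also highest, and the lowest was in Tau-P301L library 1. The Tau-P301L libraries averaged 1759 ± 951 CPM and the wild-type libraries 1262 ± 573 CPM, a difference of 497 CPM (exact permutation test, two-sided, p = 0.429, smallest possible p = 0.00794). It was 131 CPM without Tau-P301L library 5 and 794 CPM without Tau-P301L library 1.

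Most of that sum came from the long noncoding RNA Meg3, at 1332 ± 814 CPM in Tau-P301L libraries and 884 ± 494 CPM in wild-type libraries. Snhg11, another long noncoding RNA, averaged 185 ± 96.7 CPM in Tau-P301L libraries and 99.7 ± 45.2 CPM in wild-type libraries, with an edgeR adjusted p of 0.733. The synaptic gene Snap25 averaged 64.7 ± 21.97 CPM in Tau-P301L libraries and 82.9 ± 32.5 CPM in wild-type libraries. Without Meg3 and Snhg11 the markers summed to 164 to 325 CPM in Tau-P301L libraries and 179 to 347 CPM in wild-type libraries, and the difference of means turned to -36.6 CPM (exact permutation p = 0.429). Of the 20 markers 14 were tested, of which 4 had higher and 10 lower estimates in Tau-P301L libraries, and none was called by edgeR, DESeq2 or limma-voom.

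No relation of Mapt to the neuron markers was detected from library to library. Mapt reads amounted to 2.17, 0.688, 0.321, 0.508 and 1.47% of the neuron marker reads in Tau-P301L libraries, and to 0.45, 1.85, 2.78 and 1.26% in wild-type libraries. The log2 of this share differed by -0.68 between Tau-P301L and wild-type libraries (exact permutation test, two-sided, p = 0.381). It was -0.12 without Meg3 and Snhg11 (exact permutation p = 0.881), -0.32 without wild-type library 3 and -1.19 without wild-type library 1. Across the 9 libraries the correlation of log2 Mapt CPM with the log2 marker sum was 0.183 by Pearson (exact permutation p = 0.637) and 0.05 by Spearman (exact permutation p = 0.912). This was the main relation with a marker sum, and the markers were also measured in other ways. Pearson's r was 0.251 without Meg3 and Snhg11 (exact permutation p = 0.516) and 0.314 with the mean log2 CPM of the markers (exact permutation p = 0.411). With marker CPM not scaled by TMM it was 0.26 (exact permutation p = 0.501). Without Tau-P301L libraries 1 and 5, the 2 farthest from the median marker sum, Pearson's r was -0.562 (n = 7, exact permutation p = 0.194). Without Tau-P301L library 1 alone r was 0.189, and without Tau-P301L library 5 alone it was -0.43, so the positive sign rested on library 5. The part of neuronal RNA in the Mapt level was not tested further.

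**Figure D3:**
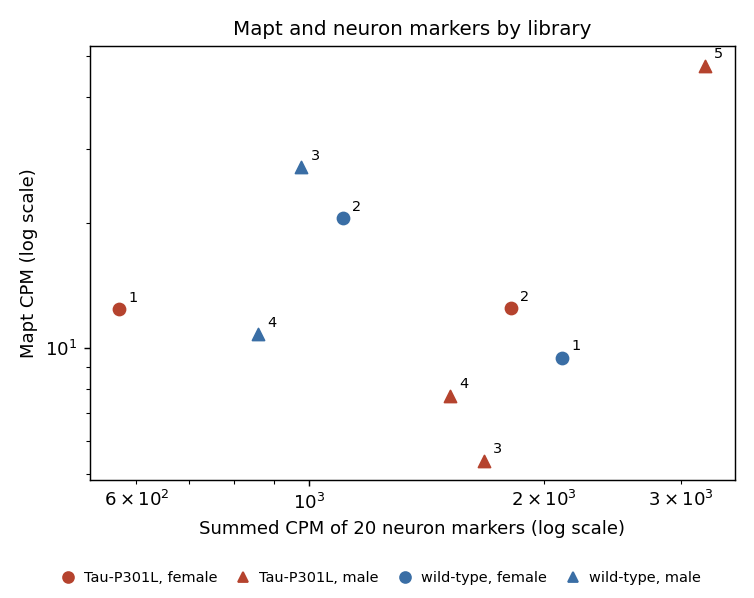
Mapt CPM against the summed CPM of 20 neuron markers, both on log scales, with 1 point per library labelled by its number. Tau-P301L library 5 is highest on both axes, at 47.5 and 3220 CPM, while among the other 8 libraries Mapt spans 5.38 to 27.2 CPM with no matching order of the marker sum.

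The tested genes whose pattern was most like that of Mapt were found by Pearson's r of log2 CPM over the 9 libraries. They were Efcab6 (r = 0.967), Gm30281 (r = 0.958), Exoc8 (r = 0.955), Creb3l2 (r = 0.936) and Galnt16 (r = 0.928). Exoc8 encodes a subunit of the exocyst, which tethers secretory vesicles, and Creb3l2 a transcription factor. None of the 5 was a neuron marker of the list above. They are the best of all other tested genes over the same 9 libraries, so high values of r are a product of that choice. Without Tau-P301L library 5 their r lay between 0.870 and 0.968.

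The GSK3 kinases, which phosphorylate tau at many of the sites found in tangles, were read from separate genes. Gsk3a (chr7:25228258-25237851) had 22.6, 35.7, 17.9, 28.6 and 25.1 CPM in Tau-P301L libraries, and 36.8, 48.8, 49.4 and 28.2 CPM in wild-type libraries. Of the 5 Tau-P301L libraries 3 lay below all wild-type libraries, and libraries 2 and 4 overlapped with the lowest wild-type one. The 5 Tau-P301L libraries averaged 25.996 ± 6.69 CPM and the 4 wild-type libraries 40.8 ± 10.2 CPM (mean ± SD). The log2 fold change of -0.63 (SE 0.33, 95% interval -1.32 to 0.06) was the most negative of the set and had the smallest p, at 0.0725 before and 0.789 after adjustment in edgeR.

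Gsk3a shares sequence with a long noncoding RNA that lies within it, and this limits how its reads can be assigned. Of its 50-base stretches 25.7% occurred in transcripts of another gene, nearly all of them (24.7%) in 9130221H12Rik at chr7:25228723-25230264. That gene had 57, 77, 40, 40 and 26 reads in Tau-P301L libraries and 93, 111, 95 and 78 reads in wild-type libraries, and its log2 fold change was also -0.63 (SE 0.35, edgeR adjusted p = 0.789). No source says whether counting used strand, so reads from the shared part cannot be told apart between Gsk3a and 9130221H12Rik.

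Gsk3b (chr16:38089001-38246084), the isoform most often studied as a tau kinase, was the steadiest gene of the set among wild-type libraries. It had 186, 149, 155, 156 and 228 CPM in Tau-P301L libraries, and 149.6, 158, 149 and 157 CPM in wild-type libraries. The coefficient of variation was 18.9% among Tau-P301L libraries, and 2.93% among wild-type libraries, where counting noise alone would give 4.62%. Tau-P301L libraries 1 and 5 lay above every wild-type library and the other 3 lay within the wild-type range. The log2 fold change was 0.18 (SE 0.23, 95% interval -0.29 to 0.65, edgeR adjusted p = 0.906), and 0.08 without Tau-P301L library 5.

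Per length, the ratio of Gsk3b to Gsk3a was 2.19, 1.11, 2.31, 1.46 and 2.42 in Tau-P301L libraries. It was 1.08, 0.861, 0.806 and 1.48 in wild-type libraries, so Gsk3a was the higher of the pair in wild-type libraries 2 and 3. The groups overlapped, since the highest wild-type ratio exceeded those of Tau-P301L libraries 2 and 4. The ratio was computed with both genes' values known and was not tested.

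**Figure D4:**
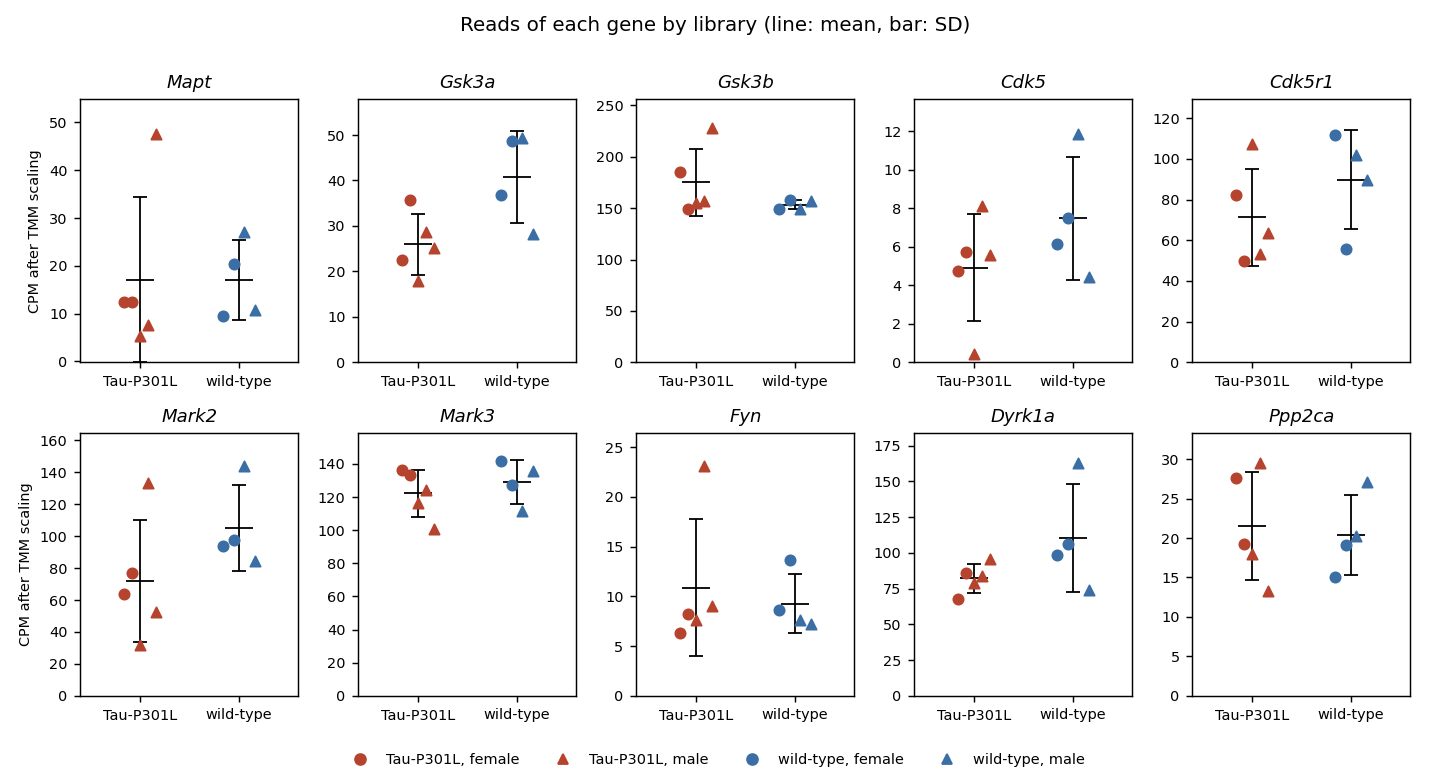
CPM of each of the 10 genes in each library after TMM scaling, with the mean (line) and SD (bar) of the 5 Tau-P301L libraries, on the left of each panel, and of the 4 wild-type libraries. Each panel has its own scale, starting at or just below 0. The groups overlap in every panel, and single high points stand out for Mapt (47.5 CPM) and Fyn (23.1 CPM) among Tau-P301L libraries.

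CDK5 is a cyclin-dependent kinase that acts mainly in neurons after mitosis and needs the activator p35, the product of Cdk5r1. Cdk5 (chr5:24407597-24423587) was sparse, with 15, 16, 1, 19 and 8 reads in Tau-P301L libraries and 20, 22, 31 and 16 reads in wild-type libraries. These were 4.76, 5.71, 0.448, 8.12 and 5.59 CPM in Tau-P301L libraries, and 6.13, 7.50, 11.9 and 4.43 CPM in wild-type libraries. Apart from Tau-P301L library 3, with its single read, the Tau-P301L values lay within the wild-type range. The log2 fold change was -0.59 (SE 0.66, 95% interval -1.97 to 0.79, edgeR adjusted p = 0.892). It was -0.30 without Tau-P301L library 3, -0.19 without wild-type library 3 and -0.89 without Tau-P301L library 4. The span of Cdk5 overlaps those of Abcb8 and Asic3, which had 4 to 30 and 0 to 12 reads per library.

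Cdk5r1 (chr11:80477023-80481184) was counted far more often than the kinase. It had 82.3, 49.99, 107, 53.0 and 63.5 CPM in Tau-P301L libraries, and 112, 55.9, 102 and 89.7 CPM in wild-type libraries. High and low libraries occurred in both groups, with the lowest pair in Tau-P301L libraries 2 and 4. The 5 Tau-P301L libraries averaged 71.2 ± 23.7 CPM and the 4 wild-type libraries 89.8 ± 24.3 CPM (mean ± SD), with a log2 fold change of -0.35 (SE 0.30, 95% interval -0.97 to 0.27, edgeR adjusted p = 0.850). It was -0.16 without wild-type library 1 and -0.53 without Tau-P301L library 3. Per length, Cdk5r1 stood over Cdk5 in all 9 libraries, by a median ratio of 7.94 in Tau-P301L libraries and 9.37 in wild-type libraries.

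The MARK kinases phosphorylate tau in its microtubule-binding repeats. The sequences above show only the ends of 3 of the 4 repeats. Mark2 (chr19:7275396-7341860) had 63.8, 77.1, 31.8, 133 and 52.4 CPM in Tau-P301L libraries, and 93.8, 97.9, 144 and 84.2 CPM in wild-type libraries. All Tau-P301L libraries except library 4 lay below the lowest wild-type library, and library 4 lay above all but wild-type library 3. Its mean ± SD over the 5 Tau-P301L libraries was 71.7 ± 38.3 CPM and over the 4 wild-type libraries 105 ± 26.8 CPM, with a log2 fold change of -0.55 (SE 0.34, 95% interval -1.25 to 0.14, edgeR adjusted p = 0.790). It was -0.93 (SE 0.31) without Tau-P301L library 4, with an edgeR adjusted p of 0.385, the smallest of any gene of the set under any alternative, and -0.17 without Tau-P301L libraries 3 and 5.

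Mark3 (chr12:111574505-111656227) had the highest level per length of the set and one of the smallest spreads. It had 137, 133, 117, 124 and 101 CPM in Tau-P301L libraries, and 142, 128, 111 and 136 CPM in wild-type libraries. The groups covered nearly the same range, with the lowest value in Tau-P301L library 5. The coefficient of variation was 11.8% among Tau-P301L libraries and 10.3% among wild-type libraries. Its log2 fold change of -0.06 (SE 0.22, 95% interval -0.53 to 0.40, edgeR adjusted p = 0.967) leaves room for a difference of about 0.5 log2 units in either direction. Per length, Mark3 stood over Mark2 by ratios of 3.89, 3.14, 6.66, 1.69 and 3.49 in Tau-P301L libraries and 2.75, 2.37, 1.40 and 2.93 in wild-type libraries, with overlap through Tau-P301L library 4.

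DYRK1A, whose human gene is triplicated in Down syndrome, phosphorylates tau and primes it for GSK3. Dyrk1a (chr16:94569947-94695519) had 67.7, 85.7, 78.9, 83.8 and 95.7 CPM in Tau-P301L libraries, and 98.7, 106, 163 and 73.9 CPM in wild-type libraries. Every Tau-P301L library lay below wild-type libraries 1, 2 and 3, and wild-type library 4 lay among them. Its mean ± SD over the 5 Tau-P301L libraries was 82.3 ± 10.2 CPM and over the 4 wild-type libraries 110.4 ± 37.4 CPM, with a log2 fold change of -0.44 (SE 0.26, 95% interval -0.99 to 0.11, edgeR adjusted p = 0.789). Leaving out wild-type library 3 gave -0.16, and leaving out wild-type library 4 gave -0.64.

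FYN phosphorylates tau on tyrosine and is also active in T cells and oligodendrocytes. Fyn (chr10:39369743-39565381) had 20, 23, 17, 54 and 13 reads in Tau-P301L libraries and 28, 40, 20 and 26 reads in wild-type libraries. These were 6.35, 8.21, 7.62, 23.1 and 9.08 CPM in Tau-P301L libraries, and 8.58, 13.6, 7.65 and 7.20 CPM in wild-type libraries. Tau-P301L library 4 was far above the rest, and the other Tau-P301L libraries lay at or below 9.08 CPM. Fyn averaged 10.9 ± 6.90 CPM in the 5 Tau-P301L libraries and 9.27 ± 2.97 CPM in the 4 wild-type libraries, with a log2 fold change of 0.17 (SE 0.54, 95% interval -0.96 to 1.297, edgeR adjusted p = 0.965). Without Tau-P301L library 4 it turned to -0.22.

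Markers of other cell types were compared with that library. The 9 neutrophil and monocyte markers summed to 247 CPM in Tau-P301L library 4, against 14.7 to 60.7 CPM in the other Tau-P301L libraries and 60.1 to 80.7 CPM in wild-type libraries. The neutrophil granule gene Ngp was at 88.9 CPM in that library, and the part of these cells in its Fyn level was not tested. The 12 T and NK cell markers summed to 0.855 to 3.49 CPM in Tau-P301L libraries, with 0.855 CPM in library 4, and to 0.277 to 6.89 CPM in wild-type libraries. Of these 12 markers, Cd3e, Cd3g, Cd2, Nkg7, Ncr1 and Gzma were at 0 in all 9 libraries and none passed the filter. The 12 oligodendrocyte markers summed to 417 to 1609 CPM in Tau-P301L libraries, with 931 CPM in library 4, and to 590.3 to 882 CPM in wild-type libraries.

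Ppp2ca (chr11:52098824-52122749) encodes the alpha catalytic subunit of PP2A, which removes phosphate from tau. It had 27.6, 19.3, 17.9, 29.5 and 13.3 CPM in Tau-P301L libraries, and 15.0, 19.1, 20.3 and 27.1 CPM in wild-type libraries. Tau-P301L libraries held both the highest and the lowest value, in libraries 4 and 5. The 5 Tau-P301L libraries averaged 21.5 ± 6.84 CPM and the 4 wild-type libraries 20.4 ± 5.04 CPM (mean ± SD), with a log2 fold change of 0.09 (SE 0.38, 95% interval -0.71 to 0.88, edgeR adjusted p = 0.975). The beta catalytic subunit gene Ppp2cb, a close paralog, had 41, 19, 42, 31 and 20 reads in Tau-P301L libraries and 20, 27, 30 and 72 reads in wild-type libraries, with a log2 fold change of 0.14 (SE 0.44). Of the 50-base stretches of Ppp2ca 41.0% occurred in another gene's transcripts, 38.9% in 9430098F02Rik, with both orientations compared. Its level therefore rests in part on how such reads were assigned. For Mapt, Cdk5, Cdk5r1, Mark2, Fyn and Dyrk1a the shared part was 0.0%, and for Gsk3b and Mark3 it was 0.0203% and 0.792%.

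The genotype difference was also compared between females and males. An edgeR fit with the product of genotype and sex called 0 of the 10 genes, against 0.0% of 13302 genes tested, and at an unadjusted p under 0.05 also 0 of the 10, against 3.95%. DESeq2 called 3 genes for this product, none of them of the set. The largest difference was that of Fyn, whose log2 fold change was 0.84 in males (SE 0.77) and -0.61 in females (SE 0.71), a difference of 1.45 (SE 1.04, 95% interval -0.71 to 3.62, edgeR adjusted p = 0.99999). Fyn averaged 13.3 CPM in male and 7.28 CPM in female Tau-P301L libraries, and 7.43 CPM in male and 11.1 CPM in female wild-type libraries. The male Tau-P301L mean includes library 4. Ppp2ca had -0.22 in males and 0.46 in females, a difference of -0.68 (SE 0.79, edgeR adjusted p = 0.99999). Gsk3a, Cdk5, Cdk5r1, Mark2, Mark3 and Dyrk1a had lower estimates in Tau-P301L libraries of both sexes, and none of these passed the threshold. For Mark3 the estimate was -0.001 in females and -0.11 in males.

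Between males and females themselves, none of the set passed the threshold. The edgeR test called 0 of the 10 genes for sex, against 0.049% of the tested genes, and 0 of 10 at an unadjusted p under 0.05, against 2.43%. The estimates ran between -0.22 for Gsk3a (SE 0.33) and 0.51 for Mapt (SE 0.56), as log2 of males over females, each with an edgeR adjusted p of 0.9999.

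The wider tau pathway was read from 8 lists of 141 other genes, of which 122 were tested. The edgeR test called 0 of the 122 for genotype, against 0.00816% of all tested genes, and so did DESeq2 and limma-voom. At an unadjusted p under 0.05 there were 10 genes (8.20%, against 6.35% of all tested genes), 2 higher and 8 lower in Tau-P301L libraries. Over all tested genes the split at this p was 437 higher and 341 lower. Estimates were higher for 56 genes and lower for 66, with a median of -0.04. The groups did not overlap for 1 gene, Rps6ka1 (0.820%, against 2.48%). The smallest edgeR adjusted p was 0.707, for Map1a.

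Among the other tau serine/threonine kinases, 35 of 41 were tested, with 17 higher and 18 lower estimates and a median log2 fold change of -0.05. At an unadjusted p under 0.05 there were 3 of 35, against 6.35% of all tested genes. Of these 3, 1 was higher and 2 lower in Tau-P301L libraries. Camk2a, a calcium and calmodulin-dependent kinase, averaged 75.4 ± 36.1 CPM in Tau-P301L libraries and 118 ± 38.1 CPM in wild-type libraries, with a log2 fold change of -0.75 (SE 0.31, edgeR adjusted p = 0.768). Rps6ka1, a ribosomal S6 kinase, lay between 43.0 and 87.5 CPM in Tau-P301L libraries and between 91.7 and 111 CPM in wild-type libraries, at -0.57 (SE 0.27, edgeR adjusted p = 0.776). Neither passed the threshold.

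Of 6 other tyrosine kinases that act on tau, 5 were tested, with 1 higher and 4 lower estimates. Src averaged 8.79 ± 2.93 CPM in Tau-P301L libraries and 17.7 ± 10.2 CPM in wild-type libraries, at -1.02 (SE 0.48, edgeR adjusted p = 0.776). Abl1 averaged 120.1 ± 47.3 CPM in Tau-P301L libraries and 182 ± 24.7 CPM in wild-type libraries, at -0.60 (SE 0.28, edgeR adjusted p = 0.776), and its paralog Abl2 had an estimate of -0.18. Of 21 regulators of the kinases, 17 were tested, with 9 higher and 8 lower estimates and a median of 0.02. Csk, which switches off Src-family kinases such as FYN, averaged 28.5 ± 6.74 CPM in Tau-P301L libraries and 47.0 ± 19.4 CPM in wild-type libraries, at -0.71 (SE 0.34). Ptprc, the CD45 phosphatase that acts on the same family, averaged 1065 ± 249 CPM in Tau-P301L libraries and 799.6 ± 245 CPM in wild-type libraries, at 0.44 (SE 0.25). Cables1, which encodes a protein that binds CDK5, had an estimate of -0.45.

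None of the phosphatase genes passed the threshold either. Of 16 other PP2A subunits 15 were tested, with 10 higher and 5 lower estimates and a median of 0.14. Estimates were -0.26 for the regulatory subunit Ppp2r5c, 0.31 for the scaffold subunit Ppp2r1b and 0.24 for the striatin Strn3. Of 11 PP2A regulators 10 were tested, with 4 higher and 6 lower estimates and a median of -0.15. The named genes among them, Anp32a, Set and Arpp19, all encode inhibitors of PP2A. Anp32a averaged 101 ± 34.4 CPM in Tau-P301L libraries and 149 ± 68.7 CPM in wild-type libraries, at -0.64 (SE 0.29, edgeR adjusted p = 0.776). Set had an estimate of 0.62 (SE 0.39) and Arpp19 one of 0.83 (SE 0.39, edgeR adjusted p = 0.776), with Arpp19 at 34.96 ± 16.3 CPM in Tau-P301L libraries and 20.3 ± 4.17 CPM in wild-type libraries. Of 9 other tau phosphatases 8 were tested, with 5 higher and 3 lower estimates and a median of 0.28. Ppp1cb, a catalytic subunit of protein phosphatase 1, had an estimate of 0.58, the calcineurin subunit Ppp3cb 0.50, and Ppp5c -0.53.

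Genes for chaperones, acetylation and clearance of tau had 18 of 21 members tested, with 6 higher and 12 lower estimates and a median of -0.04. Lrp1, a receptor that takes up tau, averaged 569 ± 230.4 CPM in Tau-P301L libraries and 911 ± 242 CPM in wild-type libraries, at -0.68 (SE 0.28, edgeR adjusted p = 0.772). The co-chaperone Dnajb1 had an estimate of 0.61 (SE 0.44) and the deacetylase Sirt1 one of 0.40 (SE 0.35). Other microtubule-associated proteins had 14 of 16 members tested, with 4 higher and 10 lower estimates and a median of -0.27. Map1a averaged 49.0 ± 25.3 CPM in Tau-P301L libraries and 81.0 ± 6.61 CPM in wild-type libraries, at -0.85 (SE 0.31, edgeR adjusted p = 0.707). Its relatives Map1s and Map1b had estimates of -0.87 (SE 0.51) and -0.43 (SE 0.31).

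**Figure D5:**
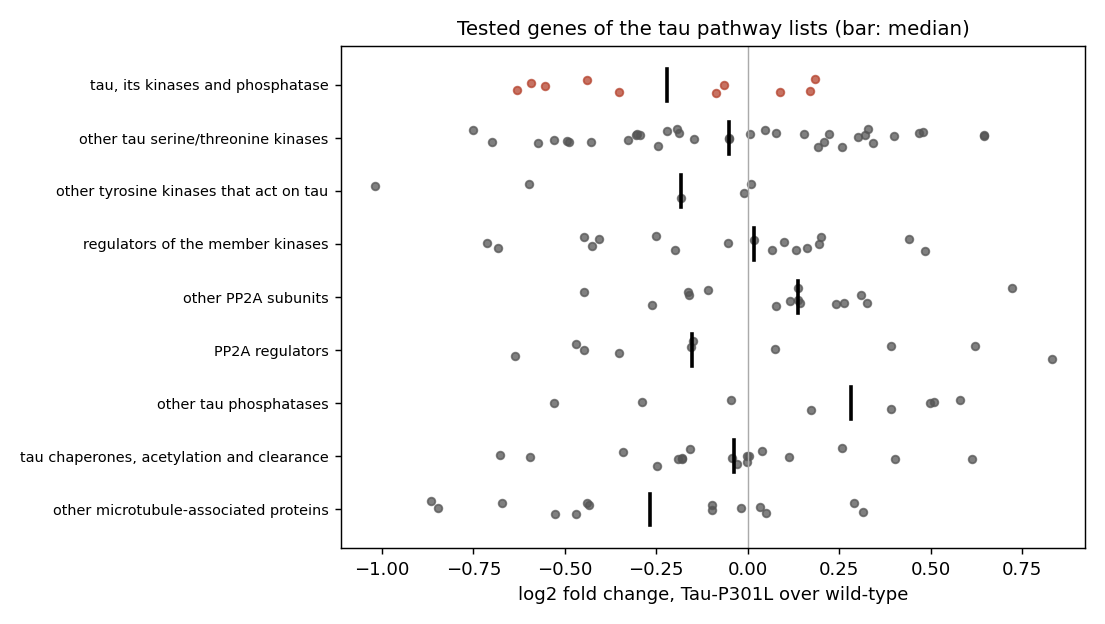
Log2 fold change, Tau-P301L over wild-type, of each tested gene of the set (top, red) and of the 8 lists of other tau pathway genes, 1 point per gene, with the median of each list as a bar. Medians lie between -0.27 for other microtubule-associated proteins and 0.28 for other tau phosphatases, and no point passed the threshold.

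Markers of the remaining brain cells were counted beside the set. The 10 astrocyte markers, led by the glutamate transporter gene Slc1a2, summed to 528 to 908 CPM in Tau-P301L libraries and 611 to 749 CPM in wild-type libraries. The 8 endothelial markers summed to 12.4 to 39.1 CPM in Tau-P301L libraries and 19.4 to 34.1 CPM in wild-type libraries, with Cldn5 at 0 in every library. The highest sums of neuron, oligodendrocyte, astrocyte and endothelial markers were all in Tau-P301L library 5, the library with the highest Mapt and Gsk3b. For neuron markers this held only with Meg3 and Snhg11. Without them the highest sum was 347 CPM in wild-type library 1, against 325 CPM in Tau-P301L library 5. None of the tested markers in the 7 lists was called for genotype by edgeR. Of the 12 microglia markers 11 had lower estimates in Tau-P301L libraries (91.7%, against 50.1% of all tested genes). Their median log2 fold change was -0.26, and their highest sum was in Tau-P301L library 3. Of the 14 tested neuron markers 10 had lower estimates, with a median of -0.27. Medians were -0.12 for endothelial, 0.01 for neutrophil and monocyte, 0.08 for oligodendrocyte and 0.29 for astrocyte markers, and -0.22 for the tau set. Whether the share of RNA from microglia or other cells has a part in the lower estimates of the tau set was not tested.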

How the data were processed

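Each of the 9 files lists mouse genes by Entrez number for 1 library. The deposited counts give the uniquely aligned reads of each gene, per the file headers, and the second column is RPKM that the authors rescaled by a size factor per library, per the file headers. Per the submitters' processing notes, reads were aligned with GSNAP to GRCm38. The sources used here name no versions, annotation, strand setting or read filters. Within each library RPKM was a constant per gene times the count (largest relative deviation 1.3e-14).

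Symbols and positions came from RefSeq GRCm38.p6 (31049 of 36528 gene numbers matched, and all 234 listed symbols); unmatched genes, which held under 4% of reads, stayed in the tests. Counts were tested with edgeR 4.0.16 in R 4.3.3 (quasi-likelihood F test, TMM, default low-count filter, robust dispersion, genotype and sex as terms, 6 residual degrees of freedom), adjusted over 12250 genes. Standard errors come from the F statistic. The biological coefficient of variation was 0.464. DESeq2 1.42.0 and limma-voom (limma 3.58.1), other scalings and filters, and fits without single libraries were alternatives. Single values were tested by exact permutation, and levels by exact sign flips over libraries. Outside the set, the 3 genes of smallest p of each pathway list and the 3 most abundant of each marker list could be named; 1 gene that this rule takes and 1 sequence are not reported here. The genes and lists were chosen with earlier results of these data known. Transcript sequence came from GENCODE M21, shared sequence being any identical 50-base stretch. Steps were tested on simulated data. Every pair of replicates differed by more than counting noise (lowest chi-square over its degrees of freedom 13.0), and all 9 libraries were kept.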

Additional observations from a re-analysis of the deposited data

Results flagged for a closer look

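In 24 groups of 4 or 5 libraries checked for a single distant value, of which chance alone would mark about 1 in 20, 2 were marked. Mapt stood at 47.48 CPM in Tau-P301L library 5, and the gap to the next of the 5 Tau-P301L libraries made up 0.831 of their range. Fyn stood at 23.09 CPM in Tau-P301L library 4, with a gap of 0.837 of the range. Each is a single library, and the log2 fold changes without it were -0.87 for Mapt and -0.22 for Fyn.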

How the results depend on the processing

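Under 20 alternatives to the genotype test, 0 of the 10 genes and 0 of the pathway genes were called, and the smallest edgeR adjusted p of the 10 was 0.385 (Mark2, without Tau-P301L library 4). The 1 gene called for genotype became 20 with DESeq2 and 26 with no filter on low counts, and 0 with females alone, males alone or without Tau-P301L libraries 3 and 5. With single libraries left out the count was 0 to 1. For the interaction 0 became 3 with DESeq2, 22 with no filter and 0 to 4 with single libraries left out, and for sex 6 became 16 with no filter. The cause was not tested. Gsk3a, Cdk5, Cdk5r1, Mark2 and Dyrk1a kept lower and Gsk3b higher estimates under all 20. Those of Mapt, Fyn, Mark3 and Ppp2ca, all near 0, changed sign: Mapt to 0.061 in males alone and -0.87 to 0.19 with single libraries left out, Fyn to -0.61 in females alone and -0.22 to 0.44, Mark3 to 0.0016 without Tau-P301L libraries 3 and 5 and -0.11 to 0.011, and Ppp2ca to -0.22 in males alone and -0.074 to 0.26. The neuron marker difference turned to -36.6 CPM without Meg3 and Snhg11 and to -0.22 as mean log2 CPM. Its correlation with Mapt ran between -0.43, without Tau-P301L library 5, and 0.31 with single libraries left out. No paired analysis was possible because the labels give no replicate numbers shared between genotypes. With 5 against 4 libraries, differences of 1 log2 unit or less were rarely detectable. In the simulated counts 13.4% of genes changed by 1 log2 unit were called, and 59.8% of those changed by 2. These rates are over genes of all levels. They were not computed for genes with counts as low as the 1 to 71 reads of Mapt, Fyn and Cdk5.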
